A study of Oryzias latipes with 2 samples.

Results

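Xanthophores are the yellow to orange pigment cells of fish skin, and 1771 of the 5316 cell barcodes of this medaka skin data set were taken as xanthophores and set against 3 kinds of non-pigment skin cell. A barcode of run 1 counted as a xanthophore when it held at least 500 unique molecular identifiers (UMIs, each standing for 1 captured transcript) and 300 genes, with at least 2 UMIs of scarb1, at least 1 of sox5 and at most 1 of KIRREL3. Non-pigment barcodes had no UMI of scarb1, sox5, KIRREL3, gch2 or pnp4a. Among those, at least 2 UMIs of epcam made a keratinocyte (864 barcodes), at least 3 of dcn and lum together a fibroblast (169) and at least 2 of CD3D, lck and zap70 together a T cell (401). A further 31 barcodes met more than 1 non-pigment definition and were left out, and 1377 of the 4613 barcodes past the minimum fell in none of these groups. Because measured counts chose the cells, the 11 genes of the definitions are given below as descriptions only.

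The cells came from skin and scales of adult wild-type medaka of both sexes (HdrR strain, "Southern phenotype" in the labels), loosened with TrypLE at 37 °C for 1 h and sorted. The sort was meant to enrich pigment cells by GFP and mCherry signal. No source used here gives its gates or the origin of those signals, and no treatment or genotype differed between the groups. All 4 groups came from 1 library, so each cell type is 1 sum of UMIs, and no test of a difference was possible.

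Xanthophores arise from the neural crest, the embryonic source of all fish pigment cells. They colour the skin with pteridines, which are made from GTP, and with carotenoids, which are taken up from the diet and held in lipid droplets. In medaka, xanthophores and the white leucophores share a progenitor, and Sox5 favours the xanthophore fate.

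Run 1 held 4702 barcodes and run 2 held 614, and no barcode sequence occurred in both. The xanthophore sum held 9306851 UMIs, the keratinocyte sum 8094726, the fibroblast sum 819051 and the T cell sum 1231525. Median depth was 4938 UMIs per xanthophore, against 8076.5, 3627 and 2912 UMIs in keratinocytes, fibroblasts and T cells. Levels are given as CPM, a feature's UMIs scaled to a common total for each sum, with the non-pigment types always in the order keratinocytes, fibroblasts, T cells. Brackets after a level or ratio hold the exact 95% interval, which covers counting error only and not the spread between fish. A gene with 0 UMIs in a sum was set at 3 UMIs, or 0.322 CPM in xanthophores and 0.371, 3.66 and 2.44 CPM in the other sums. Its ratio, written with "at least", is the ratio to this floor, and the exact interval can reach below it. In ratios followed by brackets, sums of 1 or 2 UMIs keep their own level. Such a ratio can exceed the one that 0 UMIs would give, and its wide interval is to be read with it. Run 2 gave separate sums for the non-pigment types (156 keratinocytes, 41 fibroblasts and 33 T cells) and only 5 xanthophores.

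The xanthophore name was checked on the 3 markers that took no part in the definition. csf1ra, a receptor tyrosine kinase that zebrafish xanthophores need, stood at 518 CPM (504 to 533) in xanthophores and at 0.865, 8.55 and 2.44 CPM in the others. plin6, a perilipin that coats lipid droplets and in zebrafish concentrates carotenoids, stood at 778 CPM (759.8 to 796) against 0.618, 2.44 and 1.62 CPM. slc2a11b, of the sugar transporter family, stood at 274 CPM (263 to 285) against 0.741, 0 and 0.812 CPM. The 3 markers together reached 1570 CPM in xanthophores and 2.22 to 11 CPM elsewhere, and in run 2 the non-pigment sums held at most 2.6 CPM. Non-pigment barcodes could hold no scarb1, sox5 or gch2, which also leaves out barcodes mixed with xanthophore transcripts. The low marker levels there may thus be set in part by the rule.

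The genes of the definition are given as a description. scarb1, a lipoprotein receptor through which cells take up carotenoids, stood at 1809 CPM in xanthophores, sox5 at 875 CPM and gch2, the GTP cyclohydrolase that opens pteridine synthesis, at 2318 CPM. scarb1 and sox5 were required of each xanthophore, gch2 was not, and all 3 are 0 in the other groups by rule. The leucophore gene KIRREL3 stood at 0.967 CPM in xanthophores and the iridophore gene pnp4a at 3.12 CPM. Other markers of other pigment cells stood on both sides. Low were gda of leucophores at 0.107 CPM, ltk and alx4b of iridophores at 3.55 and 1.5 CPM. So were the melanophore genes pmela, at 0 UMIs, and dct, at 0.107 CPM. Present were slc23a4, listed as a leucophore marker, at 61.8 CPM and FHL3, listed for iridophores, at 15.2 CPM. The melanophore markers tyr and MLANA stood at 97.6 and 288 CPM.

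The edge of the definition was not sharp. The 191 xanthophores with exactly 2 scarb1 UMIs held the 3 free markers at 1286 CPM, and the 223 barcodes just outside, with 1 UMI, at 1108 CPM. For sox5, the 300 cells with 1 UMI held them at 1753 CPM and the 202 excluded barcodes with none at 1790 CPM. For KIRREL3, 9 cells with 1 UMI stood at 1138 CPM and 3 excluded barcodes with 2 UMIs at 1414 CPM. On the non-pigment side, 27 barcodes held exactly 2 epcam UMIs, with keratinocyte markers outside the rule at 2191 CPM. The 180 barcodes with 1 epcam UMI held those markers at 2693 CPM. The 36 barcodes with 3 UMIs of dcn and lum held fibroblast markers at 823 CPM and keratinocyte markers at 8541 CPM. In the 40 barcodes with 2, these stood at 1172 and 18228 CPM. T cell markers stood at 1579 CPM in the 98 barcodes with 2 UMIs of the T cell genes and at 1005 CPM in the 90 with 1.

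The markers that took no part in the non-pigment definitions were highest in the type they name. Keratinocyte markers outside the rule (krt4, krt5, evpla, jupa and others) summed to 34026 CPM in keratinocytes, 5351 CPM in fibroblasts, 211 CPM in T cells and 825 CPM in xanthophores. Fibroblast markers such as col1a2 and pdgfra summed to 7479 CPM in fibroblasts and at most 116 CPM elsewhere. Of the 7479 CPM, col1a2 made up 5885 CPM, and a single barcode held 52.5% of its UMIs. In run 2 these markers summed to 276, 2159 and 6.7 CPM in keratinocytes, fibroblasts and T cells. The run 2 fibroblasts held keratinocyte markers at 6841 CPM, above their fibroblast markers. T cell markers summed to 2019 CPM in T cells, and to 397 CPM in xanthophores, of which runx3 made up 391 CPM. Among the 169 fibroblasts, 147 (87.0%) held at least 3 UMIs of the keratin genes krt5 and krt94, 120 (71.0%) held at least 3 of col1a2, COL6A1 and COL6A2, and 109 (64.5%) held both. Most cells of the fibroblast group thus carried keratin as well as collagen transcripts, and its values are those of that mixed group.

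Some xanthophore barcodes also carried non-pigment transcripts. In all, 79 of the 1771 (4.46%) met the UMI cut of a non-pigment type, 50 of them by epcam, 19 by dcn and lum and 12 by the T cell genes. They held 7.19% of the xanthophore UMIs, with a median of 7320 UMIs against 4867.5 in the rest. The 26 barcodes with at least 50 epcam UMIs held 91.9% of all epcam UMIs of the xanthophores. Without the 79 barcodes the xanthophore level of epcam went from 546 to 27.7 CPM, a fall set by the choice of barcodes, as epcam chose 50 of them. Of genes that took no part in the choice, krt5 went from 699 to 55.5 CPM, the claudin cldn7b from 236 to 14.4 CPM and rbp4, a retinol carrier, from 124 to 6.95 CPM. Xanthophore genes hardly moved: plin6 went from 778 to 803 CPM and sox10 from 1224 to 1257 CPM. The doublet caller Scrublet called only 21 barcodes (0.455%) by its automatic threshold. The alternative that leaves out doublets instead took the 169 barcodes of highest Scrublet score, a share fixed beforehand. Of these, 79 were xanthophores, and 43 of them also met a non-pigment cut.

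**Figure D1:**
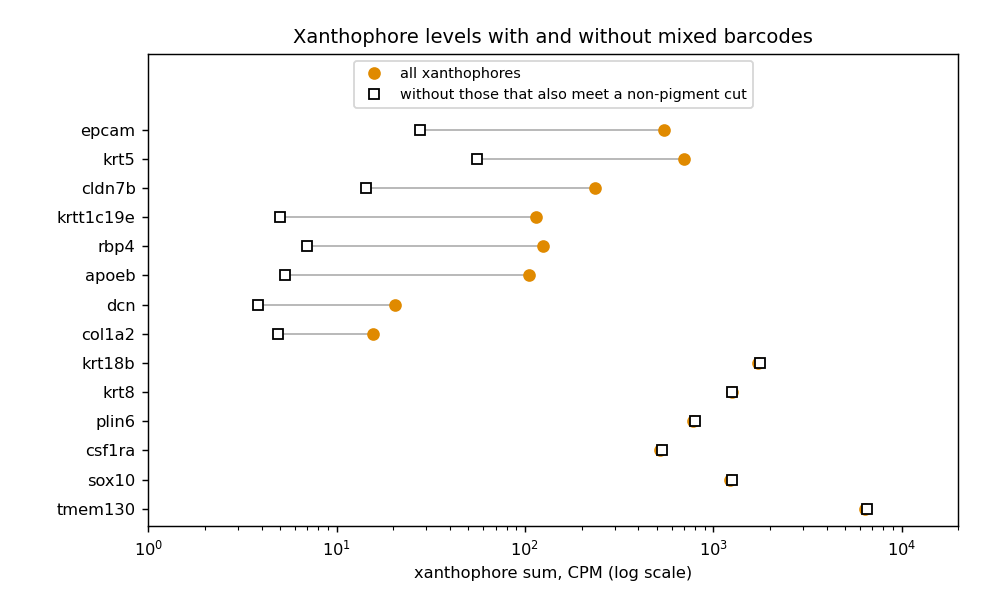
Level of 14 genes in the xanthophore sum of run 1 (CPM, log scale) over all 1771 xanthophores (filled circles) and over the 1692 that meet no non-pigment cut (open squares). epcam, krt5, cldn7b, krtt1c19e, rbp4 and apoeb are more than 10-fold lower without the mixed barcodes, while the 2 symbols nearly coincide for krt18b, krt8, plin6, csf1ra, sox10 and tmem130. epcam and dcn took part in choosing the mixed barcodes, so their change is set by that choice.

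The first comparison asked which genes set xanthophores apart from keratinocytes, the epithelial cells of the skin surface. Of 4651 features at 25 CPM or more in either sum, 1192 (25.6%) were at least 4-fold higher in xanthophores and 914 (19.7%) at least 4-fold lower. Against fibroblasts, the cells that lay down collagen matrix, 731 of 4671 (15.6%) were higher and 711 (15.2%) lower. Against T cells, 1386 of 4559 (30.4%) were higher and 566 (12.4%) lower. The 3 comparisons share the xanthophore sum and are not independent of each other. Set against the highest of the 3 types, 511 of 6076 features (8.41%) were at least 4-fold higher in xanthophores, 372 of them with a gene symbol.

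The split between higher and lower depends on the scaling for keratinocytes. Scaling by the median ratio of the genes present in all 4 sums, in place of the total, shifts each log2 ratio by −0.81 against keratinocytes, −0.13 against fibroblasts and −0.30 against T cells. The keratinocyte counts then became 786 higher and 1365 lower, against 1192 and 914. Without the 79 mixed barcodes, a choice made after seeing the data, the counts were 1226 higher and 951 lower against keratinocytes, 730 and 758 against fibroblasts and 1351 and 583 against T cells.

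**Figure D2:**
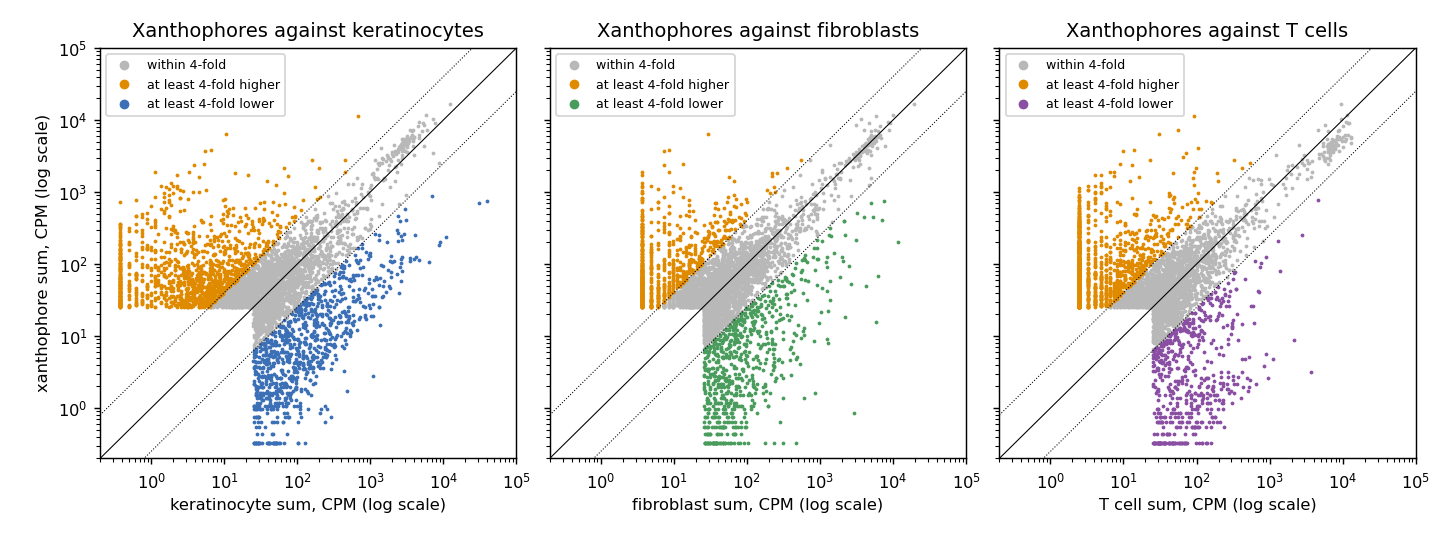
Level of each counted feature in the xanthophore sum (vertical axis) against the keratinocyte, fibroblast and T cell sums (horizontal axes), all in CPM on log scales, with levels under 3 UMIs drawn at 3 UMIs. The solid line marks equal levels and the dotted lines 4-fold differences. Orange points are at least 4-fold higher in xanthophores (1192, 731 and 1386 features) and coloured points below the lines at least 4-fold lower (914, 711 and 566).

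The leading genes of lipid droplets and carotenoid handling stood at least 4-fold higher in xanthophores than in each of the other types. dgat2, which completes triglyceride synthesis, stood at 445 CPM against 0.741, 1.22 and 0 CPM, ratios of 601-fold (276 to 1638), 365-fold (65.4 to 14408) and at least 183-fold. soat1, which esterifies cholesterol, stood at 262 CPM against 1.85, 1.22 and 12.2 CPM. bscl2l, named for the lipid droplet protein seipin, stood at 1703 CPM against 2.22, 0 and 4.06 CPM, ratios of 766-fold (484 to 1293), at least 465-fold and 419-fold (179.7 to 1292). Among features with a symbol at 100 CPM or more, leaving out the definition genes and setting sums under 3 UMIs to 3, it had the highest ratio to its highest non-pigment type, the T cells. bco2b, a carotenoid-cleaving oxygenase, stood at 457 CPM against 0.618, 2.44 and 1.62 CPM, 739.8-fold (317 to 2279.7) above keratinocytes. fabp3, a fatty acid binding protein, was present in all types, at 2778 CPM against 455, 554 and 327 CPM. Run 2 gave the non-pigment levels of fabp3 as 325, 544 and 214 CPM.

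As a group, the carotenoid and lipid list matched 56 features outside the rule, of which 19 were counted against keratinocytes. Of these, 9 were higher and 5 lower, against 25.6% and 19.7% of all counted features. Against fibroblasts 8 of 19 were higher and 5 lower (15.6% and 15.2% of all), and against T cells 10 of 16 were higher and none lower (30.4% and 12.4%). The median log2 ratio over all 56 features, with 10 CPM added to both levels, was 0.03, 0 and 0.10, and over all 23590 features outside the rule 0.01, 0 and 0.02. Most members were too low to be counted. A member counted only through its xanthophore level could not be called lower, and a member counted only through the other type could not be called higher. The same holds for the lists that follow, whose counts are also to be read beside these shares of all counted features. All lists were chosen with earlier results of these data known, so a share above that of all features is not independent support.

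Other lipid genes were lower in xanthophores than in keratinocytes or fibroblasts. plin2, another droplet coat protein, stood at 69.5 CPM against 575, 121 and 21.1 CPM, 8.27-fold (7.61 to 8.99) lower than in keratinocytes. rbp4 stood at 124 CPM against 4211, 814 and 3.25 CPM, or at 6.95 CPM in xanthophores without the mixed barcodes. The symbol FABP6, a bile acid binding protein, is shared by 2 features. The feature given here stood at 9.99 CPM against 525, 0 and 3.25 CPM, and at 0.81 CPM in xanthophores without those barcodes. CRABP1, a retinoic acid binding protein, was 64.5-fold (53.9 to 77.6) higher in fibroblasts, at 984 CPM, than in xanthophores, or 181-fold without the mixed barcodes. lpl, lipoprotein lipase, was 59.6-fold (45.2 to 79.7) higher there, or 99.3-fold without them.

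Genes of pteridine synthesis past GTP cyclohydrolase were at least 4-fold higher in xanthophores than in each other type. PTS, which acts after GTP cyclohydrolase, stood at 343 CPM against 10.9, 11 and 0.812 CPM, ratios of 31.6-fold (25.5 to 39.5), 31.2-fold (16.4 to 68.4) and 423-fold (75.8 to 16699). spra, sepiapterin reductase, stood at 595 CPM against 26.4, 48.8 and 5.68 CPM, ratios of 22.5-fold (19.6 to 25.9), 12.2-fold (8.93 to 17.1) and 105-fold (50.7 to 260.3). XDH, xanthine dehydrogenase, stood at 57.7 CPM against 0.371, 0 and 0.812 CPM, ratios of 156-fold (53 to 757), at least 15.8-fold and 71.1-fold (12.7 to 2812). The recycling enzymes of tetrahydrobiopterin were less particular. pcbd1 stood at 165 CPM against 40.5, 303 and 12.2 CPM and qdpra at 106 CPM against 15.7, 90.3 and 6.5 CPM, so both lay within 4-fold of fibroblasts and were higher than in the other types.

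The pteridine list matched 14 features outside the rule. GPR143, described with the melanosome genes, is also on it. All 6 counted against keratinocytes were higher, 4 of 8 were higher and 2 lower against fibroblasts, and 6 of 7 were higher and 1 lower against T cells. Over all counted features the shares were 25.6, 15.6 and 30.4% higher and 19.7, 15.2 and 12.4% lower. The median log2 ratios over the 14 were 0.27, −0.03 and 0.30. The members lower in xanthophores were gchfr, a regulator of GTP cyclohydrolase, at 0.86 CPM against 18.4, 29.3 and 0.812 CPM, pah, phenylalanine hydroxylase, at 5.59 CPM against 4.94, 229.5 and 3.25 CPM (0.347 CPM of gchfr and 3.24 CPM of pah without the mixed barcodes), and dhfr, dihydrofolate reductase, at 5.8 CPM against 11.5, 7.33 and 31.7 CPM. gch1, the paralog of gch2, stood at 0.215 CPM in xanthophores, or 2 UMIs.

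Purine genes upstream of GTP were 4-fold apart in some comparisons only. paics, a bifunctional enzyme of de novo purine synthesis, stood at 379 CPM against 112, 36.6 and 0.812 CPM, ratios of 3.4-fold (3.15 to 3.66), 10.3-fold (7.23 to 15.3) and 466-fold (83.7 to 18429). atic, which ends that pathway, stood at 35.6 CPM against 13.2, 7.33 and 2.44 CPM and adsl at 35.5 CPM against 4.69, 8.55 and 13.8 CPM. Of 14 features on the list, 2 of 8 counted were higher than in keratinocytes, 3 of 10 than in fibroblasts and 2 of 8 than in T cells, against 25.6, 15.6 and 30.4% of all counted features, so the shares against keratinocytes and T cells lie near or under those of all features. None was lower. The medians over the 14 were 0.32, 0.30 and 0.97. Among 22 features of purine salvage and urate breakdown, 4 of 9 were higher and 1 lower against keratinocytes, 3 of 10 and 2 against fibroblasts and 4 of 8 and 1 against T cells, with medians of 0.04, 0 and 0.02. uraha, a hydrolase of urate breakdown, led them at 825 CPM against 2.47, 0 and 4.06 CPM, ratios of 334-fold (216 to 547), at least 225-fold and 203-fold (87.1 to 626), while uox, urate oxidase, had 0 UMIs in xanthophores. pnp5a, a purine nucleoside phosphorylase, stood at 53.8 CPM against 6.18, 3.66 and 0 CPM. nt5e, an ectonucleotidase, was 10.9-fold (9.2 to 12.9) lower in xanthophores than in T cells.

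**Figure D3:**
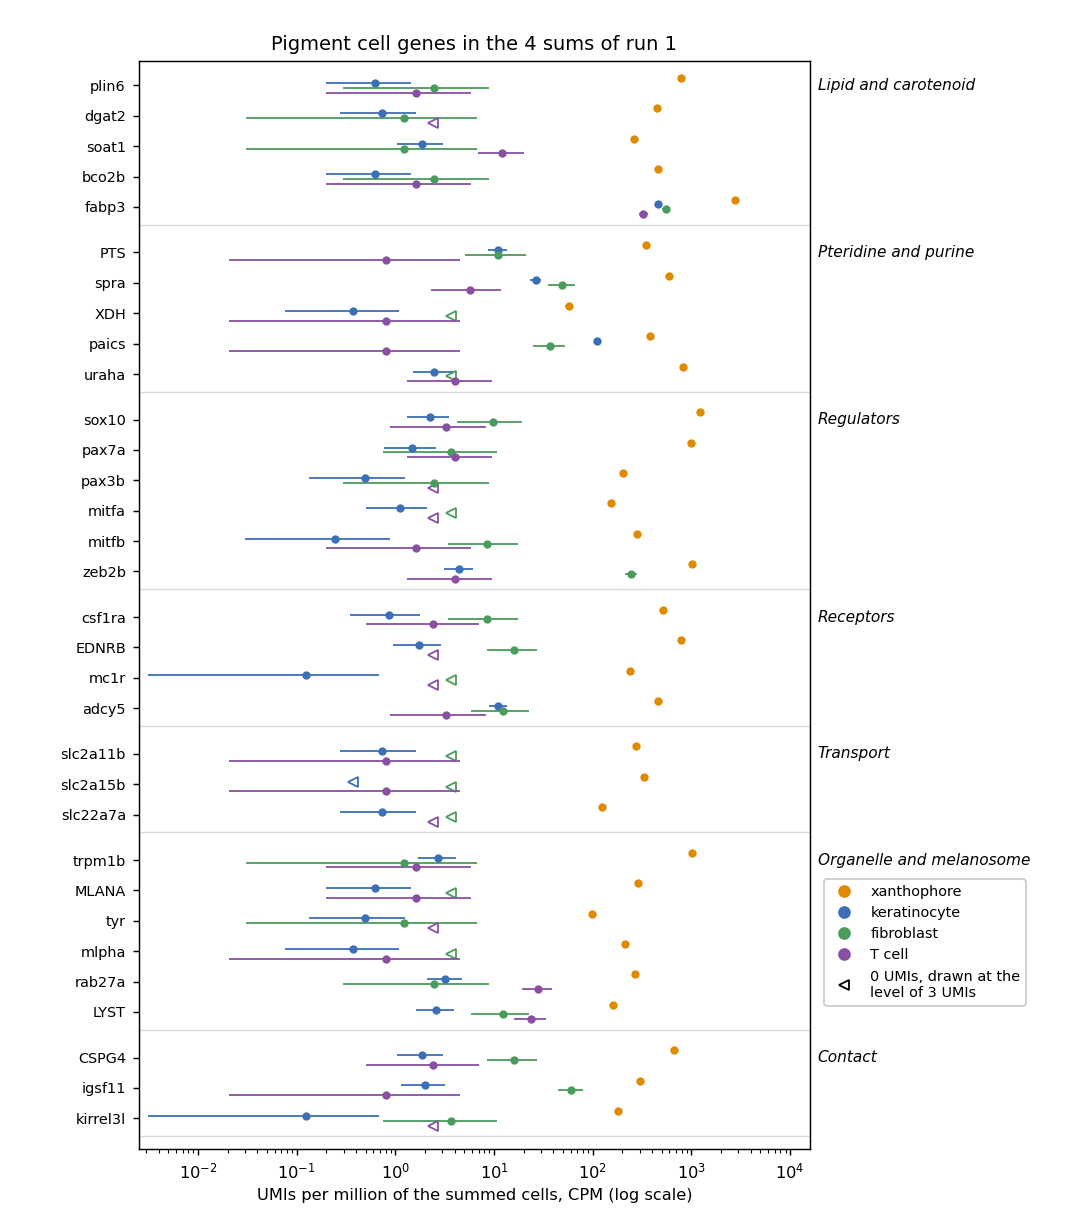
Levels (CPM, log scale) of 32 pigment cell genes in the xanthophore, keratinocyte, fibroblast and T cell sums of run 1, grouped by role, with exact 95% Poisson intervals as lines. Open triangles stand for 0 UMIs and are drawn at the level of 3 UMIs. The xanthophore point lies to the right of the 3 others for each gene shown, with the smallest gaps for paics, fabp3 and zeb2b. The genes are a selection that leaves out list members higher in another type, such as plin2, pcbd1, foxo1a and pde10a. The figure therefore does not show the lists as a whole.

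Several neural crest and pigment cell transcription factors were higher in xanthophores, and others on the same list were lower. sox10, which neural crest pigment cells need, stood at 1224 CPM against 2.22, 9.77 and 3.25 CPM, ratios of 550.3-fold (348 to 929), 125-fold (63.6 to 290.2) and 377-fold (147 to 1383). pax7a, which medaka needs to form leucophores, stood at 981 CPM against 1.48, 3.66 and 4.06 CPM, ratios of 662-fold (379 to 1281), 268-fold (91.6 to 1299) and 242-fold (104 to 744). pax3b stood at 204 CPM against 0.494, 2.44 and 0 CPM. Both melanocyte factor genes were present, mitfa at 153 CPM against 1.11, 0 and 0 CPM and mitfb at 279.8 CPM against 0.247, 8.55 and 1.62 CPM. The zinc finger gene KLF7 stood at 1226 CPM against 1.36, 1.22 and 4.06 CPM, 302-fold (129 to 929.9) above T cells, its highest other type.

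Other factors were shared with 1 of the non-pigment types. tfap2a stood at 332 CPM against 156, 7.33 and 0 CPM, so keratinocytes lay within 4-fold. By contrast zeb2b stood at 1010.4 CPM against 4.45, 243 and 4.06 CPM, only 4.16-fold (3.61 to 4.81) above fibroblasts. runx3, also a T cell gene, stood at 391 CPM against 30.1, 56.2 and 716 CPM. Of 48 regulators outside the rule, 8 of 19 counted were higher and 4 lower against keratinocytes, 9 of 19 and 5 against fibroblasts and 13 of 21 and 4 against T cells, with medians of 0.02, 0 and 0.08. All counted features gave shares of 25.6, 15.6 and 30.4% higher and 19.7, 15.2 and 12.4% lower. The regulators' share lower against keratinocytes thus lies near that of all features. Among the regulators lower in xanthophores were foxo1a, at 49.4 CPM against 510.1, 322 and 72.3 CPM, id1, at 41.6 CPM against 242, 1264 and 7.31 CPM, and ets1, at 44.7 CPM against 50.4, 40.3 and 345 CPM.

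Receptors stood on both sides, with those for endothelin, melanocortin and nociceptin higher in xanthophores. EDNRB, an endothelin receptor, stood at 778 CPM against 1.73, 15.9 and 0 CPM, ratios of 449.9-fold (268 to 823), 49-fold (28.7 to 92.1) and at least 319-fold. mc1r, the melanocortin receptor, stood at 242 CPM against 0.124, 0 and 0 CPM, and it had 1 UMI in keratinocytes, a ratio of 1956-fold (351 to 77295). oprl1, the nociceptin receptor, stood at 211 CPM against 0, 2.44 and 0 CPM. opn5, an opsin that absorbs short wavelengths, stood at 233 CPM against 0, 0 and 0.812 CPM. Downstream, the adenylate cyclase adcy5 stood at 462 CPM against 11, 12.2 and 3.25 CPM, ratios of 42-fold (34 to 52.4), 37.8-fold (20.5 to 78.9) and 142-fold (55.5 to 522).

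The phosphodiesterase gene pde10a was shared with T cells, at 452 CPM against 16.3, 76.9 and 1139 CPM, less than in T cells though within 4-fold. kiss1, which encodes kisspeptin, stood at 136 CPM against 0.124, 0 and 0 CPM and kitb, a Kit receptor, at 54.9 CPM against 3.95, 1.22 and 1.62 CPM. egfra, the EGF receptor, stood at 30.3 CPM against 623, 178 and 4.06 CPM, 20.6-fold (18.2 to 23.3) lower than in keratinocytes, or 73.7-fold without the mixed barcodes. Of the 62 features on the receptor and cyclic AMP list, 13 of 24 counted were higher and 5 lower against keratinocytes, 12 of 26 and 6 against fibroblasts and 14 of 21 and 1 against T cells, with medians of 0.05, 0.02 and 0.16. The shares over all counted features were 25.6, 15.6 and 30.4% higher and 19.7, 15.2 and 12.4% lower. The list's share lower against keratinocytes thus lies near that of all features.

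Of the sugar, urate and organic anion transporters, 5 stood higher in xanthophores than in each other type and others stood lower. slc2a15b, which is mutated in a medaka strain without visible leucophores, stood at 329 CPM against 0, 0 and 0.812 CPM, ratios of at least 887-fold, at least 89.7-fold and 405-fold (72.6 to 15988). It is a single UMI in T cells, which sets the wide interval. slc22a7a stood at 126 CPM against 0.741, 0 and 0 CPM, slc2a15a at 69.3 CPM against 0.124, 0 and 0 CPM and slc23a4 at 61.8 CPM against 0.247, 1.22 and 0.812 CPM. With slc2a11b these are the 5 higher members in each comparison, of 10, 7 and 6 counted and 31 on the list. Lower in xanthophores were 3 members against keratinocytes, 1 against fibroblasts and 1 against T cells. Over all counted features 25.6, 15.6 and 30.4% were higher and 19.7, 15.2 and 12.4% lower. SLC29A2, a nucleoside transporter, stood at 1.93 CPM against 33.4, 8.55 and 51.2 CPM, slc17a9b at 8.7 CPM against 38.9, 25.6 and 4.87 CPM, slc2a2, a glucose transporter, at 1.5 CPM against 40.4, 0 and 14.6 CPM and slc29a1a at 10.3 CPM against 1.24, 73.3 and 15.4 CPM. The medians over the list were 0 in each comparison.

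Some genes better known from melanophores were present in xanthophores, and others were at or near 0. trpm1b, a channel of melanocytes, stood at 1022 CPM against 2.72, 1.22 and 1.62 CPM, ratios of 376-fold (248 to 600.3), 837-fold (150.2 to 33067) and 629-fold (174 to 5197). The fibroblast and T cell sums were under 3 UMIs, and set at 3 they gave ratios of 279-fold and 419.6-fold. MLANA stood at 288 CPM against 0.618, 0 and 1.62 CPM, GPR143, a receptor of the melanosome membrane, at 73.6 CPM against 0.494, 6.1 and 0.812 CPM, and tyr, tyrosinase (a second feature, TYR, stood at 0.322 CPM), at 97.6 CPM against 0.494, 1.22 and 0 CPM. These were the 4 counted members of 12 on the melanosome list, and all were higher in each comparison, with a median of 0.04 in each. The shares higher among all counted features were 25.6, 15.6 and 30.4%. Each of the 4 was counted through its xanthophore level only, so none could have been called lower. In the same xanthophores, where tyr was present, pmela and oca2 had 0 UMIs, dct 1 UMI and slc24a5 2 UMIs.

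Genes for the trafficking of pigment organelles were higher in xanthophores or within 4-fold, and none was lower. mlpha, which links pigment organelles to a motor, stood at 215 CPM against 0.371, 0 and 0.812 CPM, ratios of 579.8-fold (198 to 2814), at least 58.7-fold and 265-fold (47.4 to 10458). rab27a, its Rab partner, stood at 267 CPM against 3.21, 2.44 and 27.6 CPM and LYST, whose loss enlarges lysosome-related organelles, at 159.8 CPM against 2.59, 12.2 and 23.5 CPM. RAB38 (ENSORLG00000010789) stood at 224 CPM against 7.29, 11 and 0.812 CPM, while the other feature of that symbol stood at 1.72 CPM in xanthophores. The dynactin gene dctn1a stood at 189.9 CPM against 22.9, 9.77 and 8.93 CPM and the dynein heavy chain gene DYNC1H1 at 88.4 CPM against 6.42, 11 and 13 CPM. Of 52 features, 11 of 24 counted were higher than in keratinocytes, 12 of 23 than in fibroblasts and 14 of 24 than in T cells, with medians of 0.57, 0.79 and 0.49. The shares higher over all counted features were 25.6, 15.6 and 30.4%.

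Among genes of contact between cells, most of which were too low to be counted, some were higher and some lower in xanthophores. CSPG4, a cell surface proteoglycan, stood at 665 CPM against 1.85, 15.9 and 2.44 CPM, ratios of 359-fold (217 to 642), 41.9-fold (24.5 to 78.8) and 273-fold (93.4 to 1325). igsf11, an adhesion protein that zebrafish need for adult stripes, stood at 302 CPM against 1.98, 59.8 and 0.812 CPM, and kirrel3l, named as a relative of KIRREL3, at 181 CPM against 0.124, 3.66 and 0 CPM. The neuroligin gene nlgn3a stood at 113 CPM against 0, 3.66 and 0 CPM. jam3b, a junction protein, stood at 70.6 CPM against 1.48, 61 and 0 CPM, a ratio of 1.16-fold (0.867 to 1.57) to fibroblasts, whose interval includes equal levels. Of 59 features, 9 of 13 counted were higher and 2 lower against keratinocytes, 7 of 19 and 6 against fibroblasts and 9 of 10 and 0 against T cells, with medians of 0.03, 0 and 0.13. All counted features were higher in 25.6, 15.6 and 30.4% of cases and lower in 19.7, 15.2 and 12.4%. cadm4, an adhesion gene, stood at 8.92 CPM against 175, 1.22 and 16.2 CPM and the ephrin receptor gene epha2a at 4.19 CPM against 89.2, 14.7 and 0 CPM, both lower than in keratinocytes. cdh2, N-cadherin, was 65-fold (39.2 to 114) lower than in fibroblasts, or 155-fold without the mixed barcodes.

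**Figure D4:**
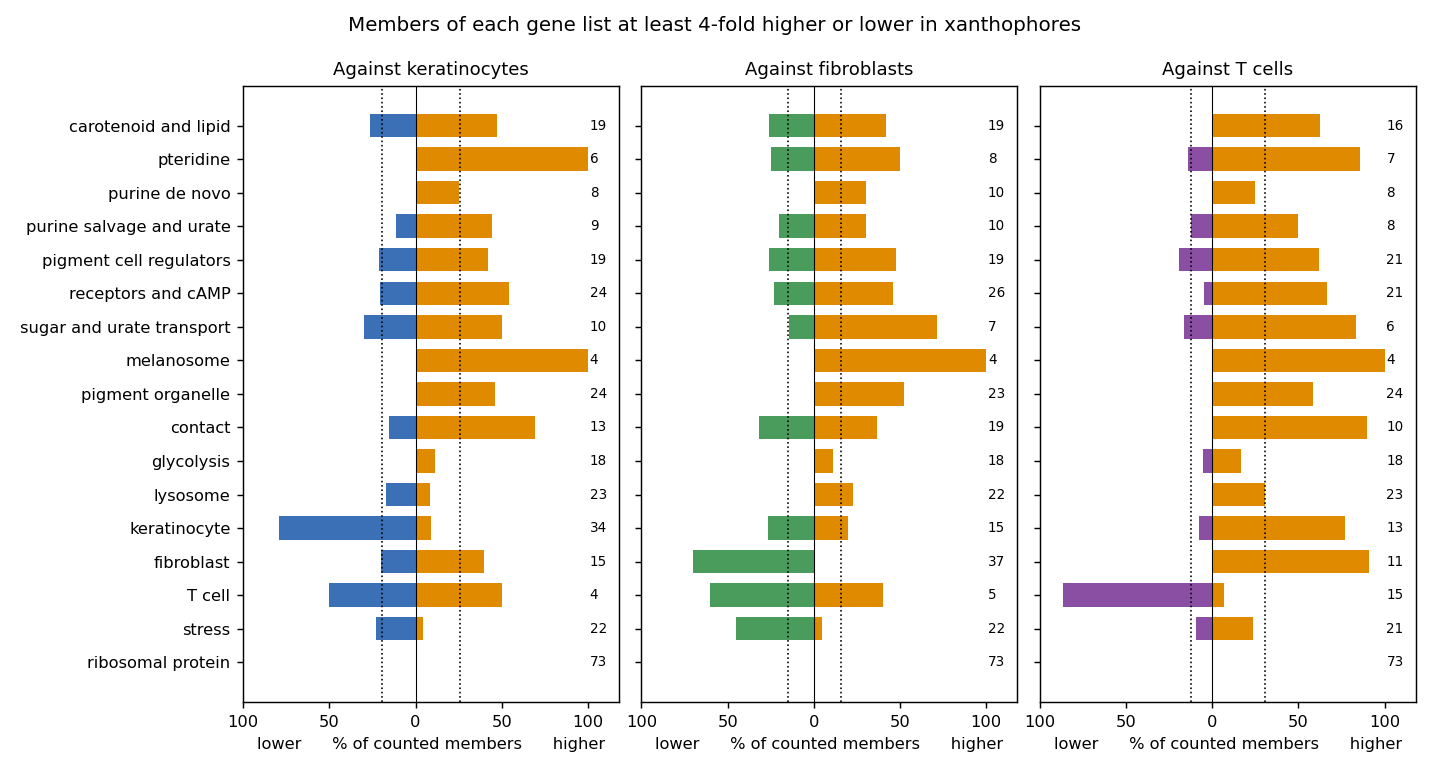
Share of the counted members of 17 gene lists that were at least 4-fold higher (orange, to the right) or lower (to the left) in xanthophores than in keratinocytes, fibroblasts and T cells, in percent. The number at the right of each bar is the number of counted members, and the dotted lines mark the shares over all counted features (25.6, 15.6 and 30.4% higher and 19.7, 15.2 and 12.4% lower). Bars of pigment cell lists reach past the dotted line on the right in most cases, and the keratinocyte, fibroblast and T cell lists reach to the left against their own type. The lists were chosen with earlier results of these data known, so such an excess is not independent support.

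Intermediate filament genes told xanthophores from keratinocytes in both directions. krt18b and krt8, keratins of simple epithelia, stood at 1726 CPM against 21.5, 525 and 4.87 CPM and at 1261 CPM against 51.3, 4633 and 90.9 CPM. krt8 was thus 24.6-fold (22.3 to 27.2) higher than in keratinocytes and lower than in the fibroblast group, though within 4-fold of it. Without the 79 mixed barcodes their xanthophore levels were 1779 and 1261 CPM, so they do not go with the epithelial genes of those barcodes. viml, named for vimentin, stood at 2486 CPM against 5.31, 13.4 and 8.93 CPM, ratios of 468-fold (347 to 647), 185-fold (103 to 371) and 278-fold (156 to 558). krt5, in contrast, was 43.7-fold (42.7 to 44.8) lower than in keratinocytes, or 551-fold without those barcodes.

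Several of the features furthest above all 3 types have no settled pigment role. tmem130, a membrane protein gene, stood at 6403 CPM against 10.6, 29.3 and 30.9 CPM, ratios of 603-fold (488 to 754), 219-fold (147 to 341) and 208-fold (151 to 293), and in run 2 the non-pigment sums held 5.16, 5.21 and 0 CPM. After each cell was thinned to 1000 UMIs, 95% of 1730 xanthophores held a tmem130 UMI, against 1.72% of 813 keratinocytes, 3.73% of 161 fibroblasts and 2.78% of 396 T cells. The thinning left out 41, 51, 8 and 5 shallower cells. sncga, gamma-synuclein, stood at 1124 CPM against 2.22, 12.2 and 2.44 CPM, and tmem163a, a zinc transporter gene, at 719 CPM against 0.371, 1.22 and 0 CPM. The uncharacterised genes zgc:113142 and si:dkey-251i10.2 stood at 2359 CPM against 3.83, 7.33 and 13 CPM and at 1214 CPM against 1.98, 4.88 and 4.87 CPM. PPEF2, a calcium-binding phosphatase, stood at 356 CPM against 0.124, 0 and 0 CPM.

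In central metabolism, H6PD, which makes NADPH in the endoplasmic reticulum, stood at 134 CPM against 7.29, 4.88 and 17.1 CPM, at least 4-fold above each other type. Of 35 features on the glycolysis and pentose phosphate list, 2 of 18 counted were higher and none lower against keratinocytes and against fibroblasts, and 3 of 18 were higher and 1 lower against T cells (medians 0.06, 0.10 and 0.22). Among lysosome genes 2 of 23 were higher and 4 lower against keratinocytes, 5 of 22 and 0 against fibroblasts and 7 of 23 and 0 against T cells (medians −0.05, 0.63 and 0.70). Of all counted features 25.6, 15.6 and 30.4% were higher and 19.7, 15.2 and 12.4% lower, so the share higher against T cells equals that of all features. Named members were ctsf, cathepsin F, at 479 CPM against 52.8, 97.7 and 14.6 CPM, and ctsla, cathepsin L, at 261 CPM against 2913, 366 and 8.93 CPM. The 73 ribosomal protein features held 30.3% of xanthophore UMIs, and 19.1, 29.2 and 50.1% in the others. None of the 73 was 4-fold apart, with median log2 ratios of 0.70, 0.10 and −0.66.

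Genes lower in xanthophores than in keratinocytes included those of the epidermal barrier. Of 34 counted members of the keratinocyte list, 27 were lower and 3 higher (krt18a.1, krt18b and krt8), with a median log2 ratio of −2.90 over the 41 features, set beside 0.01 over all. Among all counted features 19.7% were lower and 25.6% higher. evpla, envoplakin of the cornified layer, stood at 0.967 CPM against 252 CPM, 261-fold (137 to 571) lower. The keratin gene krt4 stood at 0.967 against 141 CPM and the claudin gene cldnb at 14.4 against 1354 CPM. The symbol ELOVL6, a fatty acid elongase, is shared by 3 features. The feature ranked here had 0 UMIs in xanthophores and stood at 102 CPM in keratinocytes, at least 317-fold higher. stard14 was 279-fold (171 to 488) and rhcga, an ammonia transporter, 221-fold (120.1 to 463) lower. Without the mixed barcodes the xanthophore levels were lower still, at 0.579 CPM for krt4 and 3.13 CPM for cldnb, and stard14 was 518-fold and rhcga 514-fold lower. In keratinocytes of run 2 these 5 genes stood at 133, 58.1, 345, 32.7 and 84.7 CPM, with rhcga at 85.6 CPM.

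Against fibroblasts the lower genes included those of the collagen matrix. Of 37 counted members of the fibroblast list, 26 were lower and none higher, with a median log2 ratio of −1.72 over the 53 features, and of 15 counted collagen features 14 were lower and none higher (median −0.79 over 29). Against keratinocytes 6 of 15 fibroblast list members were higher and 3 lower, and against T cells 10 of 11 and 0, with medians of 0.04 and 0.27. Among all counted features 25.6, 15.6 and 30.4% were higher and 19.7, 15.2 and 12.4% lower. The collagen I genes stood at 15.6, 1.4 and 1.61 CPM (col1a2, col1a1a, col1a1b) against 5885, 603 and 847 CPM, and in run 2 fibroblasts at 1469, 161 and 179.7 CPM. In fibroblasts a single barcode held 52.5% of the col1a2 UMIs, 98.8% of the COL10A1 UMIs and 99.7% of the paplnb UMIs, and run 2 fibroblasts held no UMI of COL10A1 or paplnb. The COL10A1 ratio and the paplnb ratio therefore each rest on nearly 1 cell. postn, periostin, stood at 9.03 against 1262 CPM (992 CPM in run 2), 139.9-fold (112 to 177) lower, or 519-fold without the mixed barcodes. Without them the collagen I genes stood at 4.86, 0.232 and 0.347 CPM in xanthophores. The basement membrane collagen gene col4a1 stood at 592 CPM against 19.1, 195 and 3.25 CPM, within 4-fold of fibroblasts.

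Against T cells the lower genes included those of lymphocytes. Of 15 counted members of the T cell list, 13 were lower and 1, arhgdig, was higher, with a median log2 ratio of −2.58 over the 19 features. Of the same list 2 of 4 were higher and 2 lower against keratinocytes, and 2 of 5 and 3 against fibroblasts, with medians of 0. Among all counted features 25.6, 15.6 and 30.4% were higher and 19.7, 15.2 and 12.4% lower. coro1a, coronin of blood cells, stood at 4.84 against 1130.3 CPM, 234-fold (174 to 322) lower, and CCR9, a chemokine receptor, at 2.47 against 532 CPM. Without the mixed barcodes coro1a was 542-fold, CCR9 574-fold and tagapb 1131-fold lower. tagapb stood at 2.15 against 654 CPM, and in T cells of run 2 these 3 stood at 663, 442 and 422 CPM. cyp1a, at 0.215 against 139 CPM, had no UMI in T cells of run 2, where 3 UMIs are 20.1 CPM. Some cell cycle genes were lower as well, 5 of 7 counted of 33 on the list (median −0.54), against 0 of 3 and 1 of 3 for keratinocytes and fibroblasts (2 and 0 higher), with mki67, a proliferation marker, at 3.65 against 42.2 CPM (2.2 CPM in xanthophores without the mixed barcodes). Another of the 5, mcm7, was 4.02-fold (2.55 to 6.23) lower, at 33 UMIs in T cells.

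Keratinocyte list members that stood higher in xanthophores than in fibroblasts or T cells rested in part on the mixed barcodes. Against fibroblasts 3 of 15 counted members were higher and 4 lower (15.6 and 15.2% of all counted features). Against T cells 10 of 13 were higher and 1 lower (30.4 and 12.4% of all). The medians were 0.05 and 0.20. Of the higher members, krt5 was 4.32-fold (3.76 to 5.01) above T cells, cldn7b 9.06-fold (6.4 to 13.3) and krtt1c19e 12.8-fold (7.11 to 25.7). Without the 79 barcodes their xanthophore levels, 55.5, 14.4 and 4.98 CPM, lay below the T cell levels of 162, 26 and 8.93 CPM. Likewise apoeb, an apolipoprotein gene, stood at 106 CPM against 6409, 1217 and 19.5 CPM, and at 5.33 CPM in xanthophores without those barcodes. 1 fibroblast barcode held 86% of the fibroblast apoeb UMIs, and run 2 fibroblasts stood at 15.6 CPM. In T cells a single barcode held 53.8% of the krt5 UMIs.

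Among stress and dissociation genes the share lower in xanthophores stood above that of all features mainly against fibroblasts. Of the list's counted members, 1 of 22 was higher and 5 lower against keratinocytes, 1 of 22 and 10 against fibroblasts and 5 of 21 and 2 against T cells, with medians of −0.53, −0.61 and 0.15. Of all counted features 25.6, 15.6 and 30.4% were higher and 19.7, 15.2 and 12.4% lower. The other shares of the list thus lie near or under those of all features. fosb, an immediate early gene, stood at 4055 CPM against 1410.2, 6008 and 105 CPM and jun at 399 CPM against 249.5, 2139 and 570.0 CPM. Macrophage genes were low: MPEG1 and spi1b stood at 0.430 and 0.107 CPM in xanthophores, and cd74a, of antigen presentation, at 210.1 CPM against 2370.3, 1079 and 1308 CPM. Of 13 features on the macrophage list, all 3 counted against keratinocytes and against fibroblasts were lower (cd74a, ctss2.1 and apoeb, the last of which rests on 1 barcode in fibroblasts), and 1 of 4 was higher and 3 lower against T cells, with medians of −0.20, 0 and 0.02.

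Lists of other cell types had few members at a counted level. In the 3 comparisons these were 1, 2 and 1 endothelial features and 2 glial and neuronal features in each. The ionocyte and mucous list had 1, 0 and 0 and the list of other pigment cells 4, 6 and 3. Over all counted features 25.6, 15.6 and 30.4% were higher and 19.7, 15.2 and 12.4% lower. Of 13 endothelial features plvapa alone was higher in all 3 comparisons, at 29.8 CPM against 0, 7.33 and 0 CPM, with kdrl lower against fibroblasts and medians of 0.10, 0.06 and 0.08. Of 17 glial and neuronal features pmp22a, of peripheral myelin, was higher against keratinocytes and T cells, at 156 CPM against 10.3, 496 and 4.06 CPM, with medians of 0.02, −0.09 and 0.05. Of 8 ionocyte and mucous features agr2 was lower against keratinocytes, at 4.94 CPM against 120.3, 0 and 0 CPM, with medians of 0, 0.02 and 0.02. Of 8 erythrocyte and muscle features only 1 was counted, against fibroblasts, and it was not 4-fold apart. The medians over the 8 were 0.02, −0.10 and 0.20. Of 13 markers of other pigment cells MLANA, slc23a4 and tyr were higher in each comparison, with medians of 0.05, 0.02 and 0.20. FHL3, listed as an iridophore gene, was lower against keratinocytes, and alx4b and ltk were lower against fibroblasts. Of 93 features of oxidative phosphorylation 65, 66 and 65 were counted. Of these, 1 was lower against keratinocytes, 1 was lower against fibroblasts and 1 was higher against T cells. The medians over the 93 were 0.23, 0.07 and 0.22.

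Xanthophores also varied among themselves. Over the 1730 cells thinned to 1000 UMIs, gch2 was detected in 49% at a mean of 2.07 UMIs, with a variance 6.30 times its mean (Fano factor). Among 198 features with a symbol at least 4-fold above all 3 types and seen often enough to be ranked, the median Fano factor was 1.31. Among the highest were 5.65 for zgc:113142, in 54.9% of the cells, 4.01 for si:dkey-251i10.2 (39.8%), 3.52 for zeb2b, 3.19 for uraha (32.4%), 3.09 for spra (26.6%) and 2.79 for bco2b (24.4%). sox10, with a Fano factor of 1.43, was detected in 67.2% of these cells.

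Thinned cells with and without a gch2 UMI differed in which other genes were detected. Before thinning 64.4% of all xanthophores held a gch2 UMI, so some cells counted as without it did carry the transcript. Of the 847 thinned xanthophores with a gch2 UMI, 58.1% held si:dkey-251i10.2, 43.2% uraha and 33.6% spra, against 22.3, 22.0 and 19.9% of the 883 without. The carotenoid oxygenase bco2b went the other way, at 14.5% with gch2 and 33.9% without, and csf1ra stood at 32.9 and 47.1%. pax7a was found in 56.9 and 58.0% and sox10 in 67.1 and 67.4%. Over the 45 pairs of the 10 most variable genes, the most negative difference was for bco2b, found in 6.53% of the 689 cells with si:dkey-251i10.2 and in 36.2% of the 1041 without it, and the most positive for uraha, in 53.8 and 18.2% of the same cells. Cells are not replicates, so these shares are descriptions of 1 library, and the gch2 comparison was chosen after its spread was seen.

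**Figure D5:**
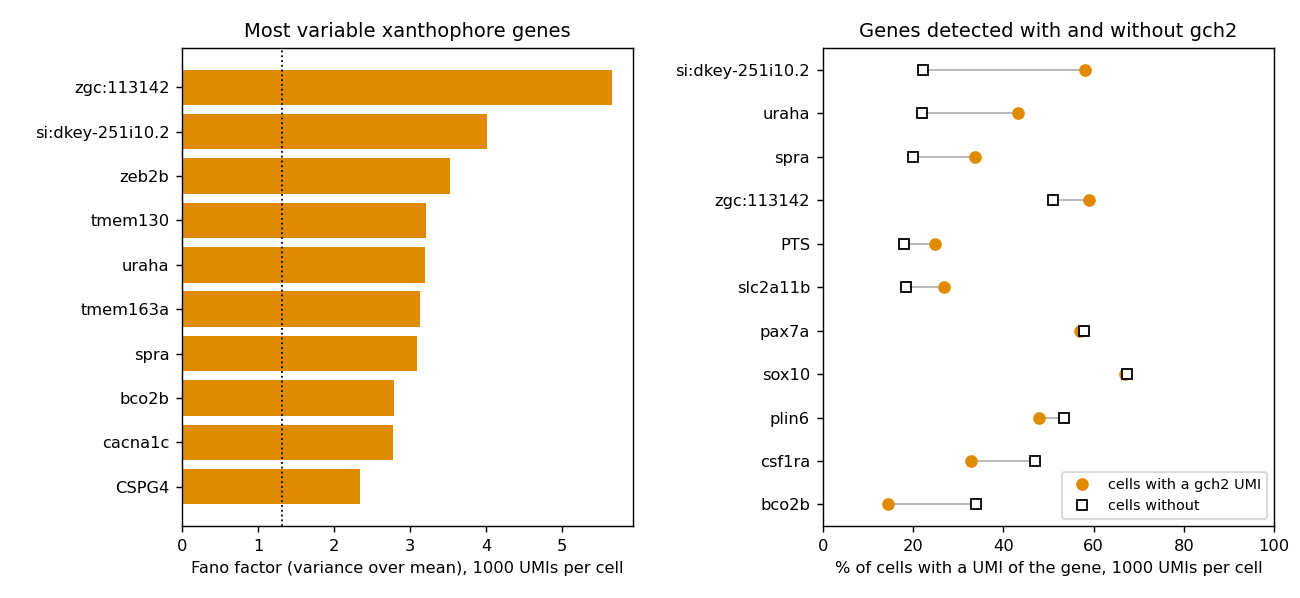
Left, Fano factor (variance over mean) of the 10 most variable genes among those at least 4-fold above all 3 non-pigment types, over 1730 xanthophores thinned to 1000 UMIs, with the median of 198 such features (1.31) as a dotted line. Right, share of thinned xanthophores with a UMI of each gene, in percent, among the 847 cells with a gch2 UMI (filled circles) and the 883 without (open squares), where si:dkey-251i10.2 and uraha are more often detected with gch2 and bco2b less often.

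Level also moved with depth. In the 591 shallowest xanthophores (529 to 3865 UMIs), plin6 stood at 1374 CPM and csf1ra at 728 CPM, against 645 and 428 CPM in the 590 deepest (6075 to 28759 UMIs). gch2 went from 1679 to 2766 CPM and the ribosomal share from 21.7 to 33.0%, while tmem130 stood at 5852 and 6352 CPM. Of the genes set against gch2 detection, spra went from 434 to 659 CPM and bco2b from 551 to 356 CPM. sox10, found alike with and without gch2, went from 1633 to 1031 CPM. Thinning evens the UMIs per cell but not these levels. Whether cells with and without gch2 differ by depth was not tested. scarb1 and sox5, whose fixed UMI minimum is a larger share of a shallow cell, went from 3103 to 1498 CPM and from 1346 to 745 CPM.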

How the data were processed

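Single-cell 3′ RNA libraries of sorted adult medaka skin and scale cells were sequenced in 2 runs. The deposited values are counts of UMIs per feature and barcode. They were made by the authors with Cell Ranger 7.1.0, per the submitters' processing notes. No source used here gives the genome build or annotation. The tables hold 23601 features, 13523 of them with a gene symbol, and 723 share their symbol with another feature.

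Barcodes with at least 500 UMIs and 300 genes were grouped by UMI cuts, summed per cell type within run 1 and divided by the sum's total. No doublets were removed. A feature was counted in a comparison at 25 CPM in either sum and called at 4-fold, with sums under 3 UMIs set to 3. The 11 genes of the definitions were left out. Intervals are exact 95% intervals (Poisson for levels, conditional binomial for ratios) and cover counting error only. With 1 library per cell type, and no label that tells animals apart, no test was run and depth sets only the counting error. The calling code was run on simulated Poisson sums. These held no spread between cells and no mixed barcodes, so they do not bear on calls that rest on few barcodes.

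Named genes are the definition genes and xanthophore markers, the 10 called genes with a symbol and at least 100 CPM with the highest lower bound of the ratio in each comparison and direction, the 10 with the highest ratio to the highest other type, up to 6 called members of each list by level, other members as background, and defining markers of other cell types. The 26 lists hold 1079 symbols, of which 864 matched. The members and lists were chosen with earlier results of these data known. For the spread among cells, each cell was thinned to 1000 UMIs. There were 16 alternatives, 2 of them added after seeing the data. Python 3.11.15, numpy 2.4.6, scipy 1.17.1, pandas 2.3.3 and scanpy 1.11.5 were used. The values of some genes are not reported here.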

Additional observations from a re-analysis of the deposited data

Results flagged for a closer look

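Run 2 was used above for non-pigment cells only, yet 5 of its 614 barcodes met the xanthophore definition. They held 28316, 5457, 13760, 35948 and 24177 UMIs. The barcodes with 5457 and 13760 UMIs held 3 and 2 UMIs of csf1ra, 4 and 11 of plin6 and 2 and 9 of slc2a11b, with none of epcam. The barcodes with 28316 and 35948 UMIs held 103 and 164 UMIs of epcam and none of csf1ra, plin6 or slc2a11b. The remaining barcode held none of these 4 genes. Why the runs differ in xanthophores was not tested.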

How the results depend on the processing

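Of 96 counts of genes over 16 alternatives, 76 stayed within 1.5 times the value reported. Of 285 named ratios called at 4-fold, between 254 (non-pigment cells of run 2) and 285 kept their call under the 13 alternatives run for single genes, which leave out the other filters and the 2-fold cut. No paired analysis was possible because all cell types came from 1 library of 1 group and no result came from a test.

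With median-ratio scaling, genes at least 4-fold higher in xanthophores than in keratinocytes numbered 786. With no low-value filter, genes at least 4-fold higher in xanthophores than in keratinocytes numbered 3806 and genes at least 4-fold lower in xanthophores than in keratinocytes 2014, genes at least 4-fold lower in xanthophores than in fibroblasts 6286, and genes at least 4-fold higher in xanthophores than in T cells 2210 and genes at least 4-fold lower in xanthophores than in T cells 5334. The floor of 3 UMIs is 0.322 CPM in xanthophores, but 3.66 CPM in fibroblasts and 2.44 CPM in T cells. Without the filter, a gene with few xanthophore UMIs and none in those types is therefore called lower. The counts of 6286 and 5334 include such genes and do not measure genes lower in xanthophores. With a filter of 100 CPM the counts higher and lower were 412 and 470 against keratinocytes, 319 and 272 against fibroblasts and 505 and 211 against T cells, as fewer genes were counted. With 10 CPM added to both sums, 727 were higher than in keratinocytes, and genes at least 4-fold higher in xanthophores than in fibroblasts numbered 478. At 2-fold, 1828 were higher than in keratinocytes, 1313 higher and 1128 lower than in fibroblasts and 942 lower than in T cells. With cells thinned to 1000 UMIs 433 were higher than in fibroblasts, and with T cells of run 2 717 were higher than in T cells. The floor of 3 UMIs is 20.1 CPM in T cells of run 2, against 2.44 CPM in run 1. Thinning left 161 fibroblasts of 1000 UMIs each, which raises the fibroblast floor as well. With a raised floor, a gene absent from the other type needs a higher xanthophore level to be called higher. Apart from the filters and the fold, the cause of these changes was not tested.

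Over these alternatives 4102 values of named ratios lay within the counting interval of the reported ratio, 1655 moved outside it and 15 changed direction. Without the mixed barcodes, the ratio to T cells was 0.343 for krt5, 0.552 for cldn7b, 0.557 for krtt1c19e and 0.273 for apoeb, and the ratio to fibroblasts 0.840 for cldn7b and 0.453 for krtt1c19e. Without the barcodes of highest Scrublet score, the ratio to T cells was 0.656 for krt5 and 0.332 for apoeb. With barcodes of more than 1 non-pigment type counted, the ratio to T cells was 0.468 for krt5, 0.360 for apoeb, 0.50 for rbp4 and 0.618 for cldn7b, and the ratio to fibroblasts 0.17 for cldn7b and 0.161 for krtt1c19e. With fibroblasts of run 2 the ratio of apoeb was 6.76. The fibroblast sum, at 819051 UMIs, limits what can be seen there, since 3 UMIs are 3.66 CPM.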
